A study of Mus musculus with 3 samples.

Results

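Mature microRNAs (miRNAs) of the miR-1, miR-133 and miR-206 clusters are called myomiRs because they are made chiefly in striated muscle. Each cluster is transcribed as 1 precursor RNA that yields a miR-1 type and a miR-133 type hairpin, and each hairpin can give a guide arm, which is loaded into the silencing complex, and a passenger arm, which is mostly degraded. miR-1 and miR-206 share a seed, the bases that pair with target mRNAs, and are known to promote muscle differentiation, with HDAC4 among the targets of miR-1. miR-133 is known to favour myoblast proliferation in several models. The study of these data reports that a miR-133a mimic raised the share of C2C12 cells positive for the muscle protein troponin T. The mimic did not change the share positive for fast or slow myosin heavy chain.

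All probes named for miR-1a, miR-1b, miR-133a, miR-133b or miR-206, with any arm or locus suffix, were taken (in full mmu-miR-206-3p, mmu-miR-133b-3p, mmu-miR-133a-3p, mmu-miR-1a-3p and so on, the mouse prefix being left out from here), which gave 11 of the 1265 mouse miRNA probes of the array. They cover 5 probes of 3p arms and 6 probes of 5p arms. W4-08-PR, C2C12-DF and C2C12-PR cells were each measured on 1 single-colour Toray 3D-Gene array with 1 spot per probe. C2C12 is a mouse myoblast line that fuses into myotubes when serum is reduced. W4-08 is a stable C2C12 subline carrying a blasticidin-selected vector in which the CMV promoter drives V5-tagged Wnt4, and the study describes it as forming myotubes without serum reduction. W4-08-PR and C2C12-PR cells were both kept in growth medium (DMEM with 10% fetal bovine serum). For C2C12-DF the serum was 2% horse serum, the differentiation medium. The labels give no day of harvest for the arrays and no count of myotubes, and a single subline stands for Wnt4 over-expression. With 1 array per condition there was no test between conditions.

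Sequences were drawn from RefSeq (GRCm38.p6) for 5 of the 11 members. They are shown with the seed (bases 2 to 8) in capitals, so that arms and seeds can be set beside the values. The last 2 lines give other mouse miRNAs with the seed of miR-206-3p, from a search that did not cover every chromosome and so is not complete.
miR-206-3p, chr1:20679055-20679076, plus strand: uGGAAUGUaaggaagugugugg
miR-206-5p, chr1:20679017-20679039, plus strand: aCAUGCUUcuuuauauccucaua
miR-133b-3p, chr1:20682834-20682855, plus strand: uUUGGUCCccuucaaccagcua
miR-133b-5p, chr1:20682797-20682818, plus strand: gCUGGUCAaacggaaccaaguc
miR-1a-1-5p, chr2:180389057-180389079, plus strand: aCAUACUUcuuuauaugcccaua
miR-6349, chr1:39186908-39186929, minus strand: uGGAAUGUgggaggggcaugcg
miR-6382, chrX:106309909-106309932, plus strand: uGGAAUGUaaagagagcacacaag
miR-6382 matches miR-206-3p over the first 10 bases and at 12 of 22 positions in all, and miR-6349 over the first 8 bases and at 11 of 22 positions. miR-206-5p and miR-1a-1-5p, arms of a miR-206 and a miR-1 hairpin, are identical at 20 of 23 positions.

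The 2 hairpins of the miR-206 cluster are shown with both arms in capitals, since each arm had its own probe.
Mir206, chr1:20679010-20679082, plus strand: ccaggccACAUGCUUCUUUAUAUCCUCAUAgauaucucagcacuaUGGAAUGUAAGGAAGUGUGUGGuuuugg
Mir133b, chr1:20682769-20682887, plus strand: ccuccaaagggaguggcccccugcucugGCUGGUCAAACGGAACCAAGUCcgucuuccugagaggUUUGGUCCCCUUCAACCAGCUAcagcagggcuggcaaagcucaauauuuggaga
The 2 hairpins lie 3686 bases apart in the same orientation, and both fall within Lincmd1, a long noncoding RNA gene of muscle. In the gene order of the same annotation, Mir1a-1 and Mir133a-2 are likewise neighbours, and miR-1a and miR-133a each have a further gene at another locus. A probe for a mature miR-1a or miR-133a guide therefore cannot tell the loci apart.

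Detection followed the deposited tables, which give a background-subtracted value only to spots above a limit. Background was estimated from the 1664 blank spots (mean without the outer 5% on either side) and was 99.9, 101 and 95.9 arbitrary units on the W4-08-PR, C2C12-DF and C2C12-PR arrays. The dimmest detected probes lay 9.77, 10.8 and 11.9 units above it, heights that 6.85%, 6.01% and 7.15% of the blank spots reached, and 477, 370 and 339 miRNA probes were detected. Of the 11 probes, 3 were detected on all 3 arrays (miR-206-3p, miR-133b-3p and miR-133a-3p), 1 (miR-1a-3p) on W4-08-PR alone, and 7 on none. None of their spots was flagged.

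miR-206-3p, the guide arm of miR-206, read 1917 units above background in W4-08-PR, 219 units in C2C12-DF and 54.4 units in C2C12-PR. W4-08-PR was thus brightest and C2C12-PR dimmest, and even the C2C12-PR spot outshone every blank spot of its array. miR-133b-3p, the guide arm encoded beside it, read 1009 units in W4-08-PR, 100.2 units in C2C12-DF and 37.3 units in C2C12-PR. miR-133a-3p, encoded with miR-1, read 693 units in W4-08-PR, 75.8 units in C2C12-DF and 27.2 units in C2C12-PR. The order of the arrays was the same for these 3 probes, and the reading nearest to background, that of miR-133a-3p in C2C12-PR, lay 3.59 SD of the blank spots above background, with 2 blank spots at least as bright. Brightness was not compared between probes, whose binding differs.

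**Figure D1:**
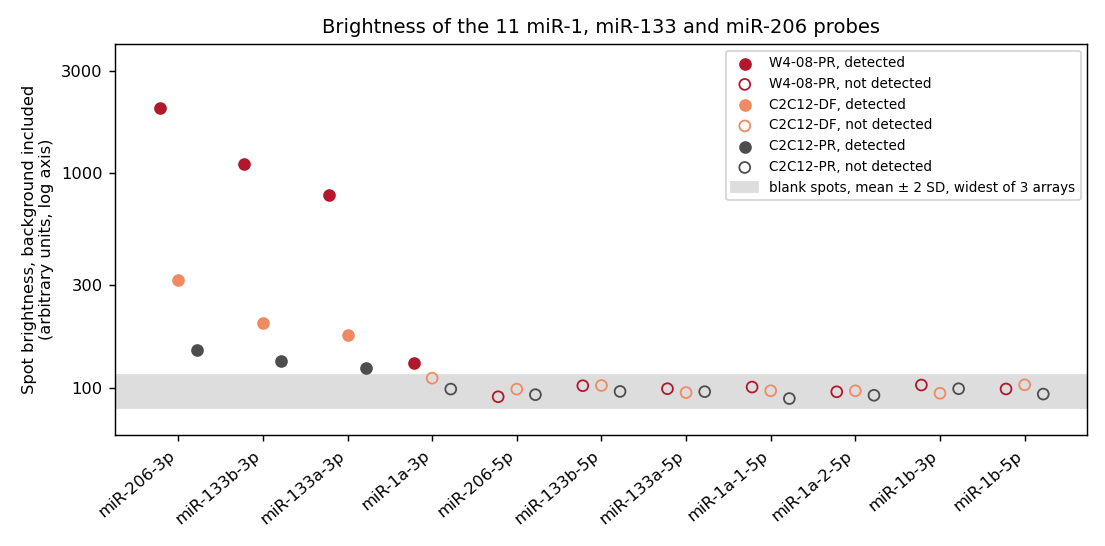
Brightness of the spot of each of the 11 probes, background included, in arbitrary units on a log axis, for W4-08-PR, C2C12-DF and C2C12-PR from left to right within each probe, filled where detected and open where not, with a grey band for the mean ± 2 SD of the blank spots (widest of the 3 arrays). The 3p probes of miR-206, miR-133b and miR-133a descend in the same order of arrays, miR-1a-3p leaves the band on W4-08-PR only, and the other 7 probes stay within it.

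miR-1a-3p, the guide arm of miR-1, was close to the detection limit. It read 31.3 units above background in W4-08-PR, 10.3 units in C2C12-DF and 2.76 units in C2C12-PR. The W4-08-PR spot was reached by 1 of 1664 blank spots, the C2C12-DF spot by 112 and the C2C12-PR spot by 557. The C2C12-DF reading fell short of the dimmest detected probe of its array, at 10.8 units, and so counts as undetected. The order of the 3 arrays was that of the other guide arms, but only the W4-08-PR reading stood clear of the blank spots.

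The 7 probes detected on no array were miR-206-5p, miR-133b-5p, miR-133a-5p, miR-1a-1-5p, miR-1a-2-5p and both arms of miR-1b, which is encoded opposite a miR-1a gene. Their brightness relative to background ranged from -9.01 to 3.18 units in W4-08-PR, from -6.32 to 2.64 units in C2C12-DF and from -6.77 to 3.14 units in C2C12-PR. With medians of -0.81, -3.73 and -2.37 units in that order of arrays, they did not stand above the blank spots. miR-206-5p read -9.01 units in W4-08-PR, -2.03 units in C2C12-DF and -2.98 units in C2C12-PR, so the array with the brightest 3p arm had its dimmest 5p reading. miR-133b-5p read 2.45 units in W4-08-PR, 1.89 units in C2C12-DF and 0.30 units in C2C12-PR, all inside the spread of the blank spots. None of the 6 probes of 5p arms was detected on any array. At this sensitivity a low level of these arms was not detectable, and their absence is not shown.

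**Figure D2:**
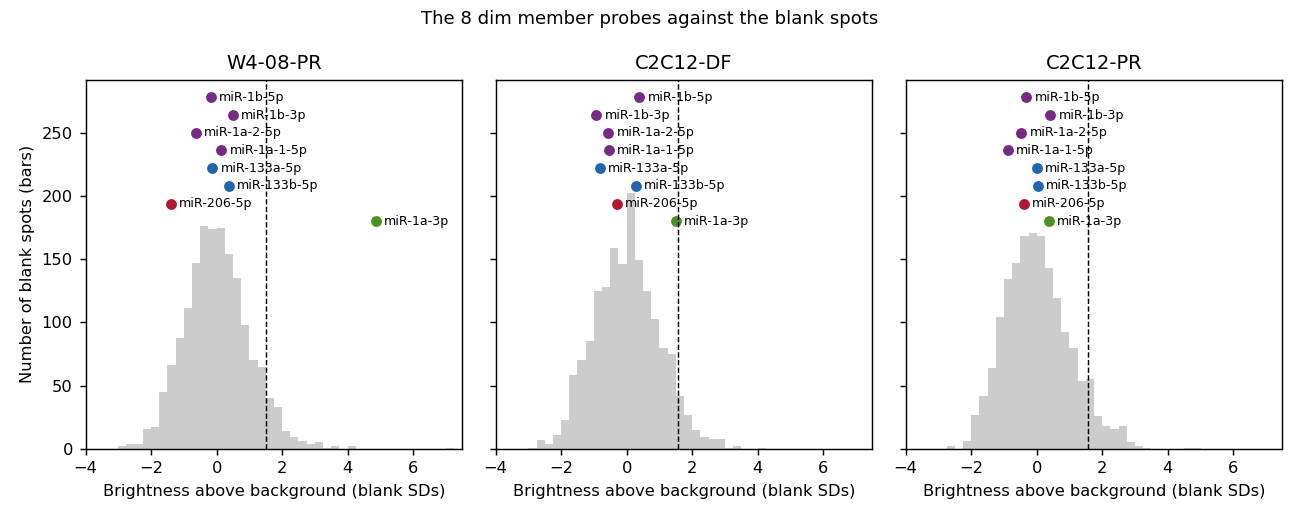
The 8 dim probes on each array, by brightness above background in SDs of the blank spots (horizontal axis), over the histogram of the 1664 blank spots (bars, vertical axis). The height of a point only separates the names, colours mark miR-1a-3p (green), other miR-1 arms (purple), miR-133 arms (blue) and miR-206-5p (red), and the dashed line is the dimmest detected probe of the array. miR-1a-3p lies beyond all but 1 of the blank spots on W4-08-PR at 4.87 SD and just below the line on C2C12-DF at 1.5 SD, while the other 7 probes lie among the blank spots.

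For the comparisons, values were normexp-corrected for background, an offset of 50 units was added, and the log2 values were then quantile normalized. The limit for a call was a 2-fold difference (a log2 ratio of 1 or more in either direction), with the probe detected on the brighter array. The ± is 1 technical SD from the blank and spike control spots and holds no biological variation. The offset draws ratios of dim probes toward 0, so the fold of brightness above background, with no scaling of the arrays, is given too for probes detected on the brighter array. In each comparison, fewer differentiated cells with a miRNA and less of it per cell cannot be told apart in bulk RNA.

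The comparison of W4-08-PR with C2C12-PR asks how Wnt4 over-expression went with miRNA levels in the same medium. miR-206-3p was higher in W4-08-PR by a log2 ratio of 3.87 ± 0.15, or 14.6-fold. Its brightness above background was 35.3-fold higher, a log2 of 5.14 ± 0.25. miR-133b-3p was higher by 3.20 ± 0.16, or 9.19-fold, and by 27.0-fold in brightness above background (4.76 ± 0.33). miR-133a-3p was higher by 2.74 ± 0.17, or 6.68-fold, and by 25.4-fold in brightness (4.67 ± 0.43). These 3 of the 11 member probes were called higher and none lower, where 0.237% of all 1265 probes were called higher and 0.993% of the 302 detected on both arrays, the same 3 in each case. Lower calls took 0.711% of all probes and 2.65% of those detected on both arrays. The median of these 3 was 3.20, against -0.026 over the 302 probes, and the highest ratio of any other probe was 0.98, for miR-711. miR-1a-3p was higher by at least 1.18-fold, a bound set by the dimmest detected probe of C2C12-PR on the normalized scale with its offset, and was not called. In brightness above background the same floor gave a bound of 2.63-fold, nominally past the 2-fold limit. Neither bound carries a technical SD. The blank spots had an SD of 6.43 units in W4-08-PR and 7.59 units in C2C12-PR. The 7 undetected arms had ratios between -0.22 and 0.11 around a median of -0.065.

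**Figure D3:**
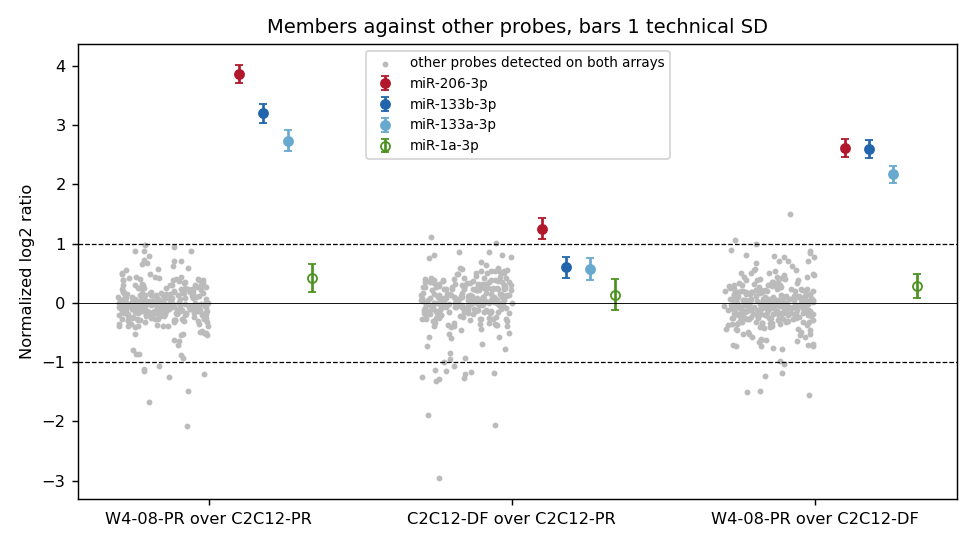
Normalized log2 ratio (vertical axis) in the 3 comparisons, with grey points for the other probes detected on both arrays and coloured points for the 4 member probes with their 1 technical SD bars (miR-1a-3p open, not detected on both arrays) and dashed lines at the 2-fold limit. The 3 detected guide arms stand above all grey points in both comparisons of W4-08-PR, and miR-206-3p alone of the 3 does in C2C12-DF over C2C12-PR.

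The comparison of C2C12-DF with C2C12-PR follows the parental line into differentiation medium. miR-206-3p was higher in C2C12-DF by a log2 ratio of 1.26 ± 0.17, or 2.39-fold, and by 4.02-fold in brightness above background (2.01 ± 0.27). It ranked 1 of the 285 probes detected on both arrays, ahead of miR-145a-5p at 1.11. miR-133b-3p had a log2 ratio of 0.60 ± 0.18 and ranked 12, and miR-133a-3p had 0.57 ± 0.19 and ranked 16, both short of the limit. Without the offset both passed it, with a 2.68-fold (1.42 ± 0.36) and a 2.78-fold (1.48 ± 0.46) brightness above background. More probes of any kind pass the limit without an offset. Plain background subtraction called 28 of all 1265 probes higher, plain subtraction with spike control scaling 31, and the authors' processed values 42. The main processing called 3. In the main processing only 1 of the 11 member probes, miR-206-3p, was called higher, where the calls covered 0.237% of all probes and 1.05% of those detected on both arrays. No member was called lower, where 1.11% and 4.56% of the same probes were. The median of the 3 guide arms was 0.60, against 0.045 over the 285 probes. miR-1a-3p, undetected on both arrays, gives no fold, and the 7 other arms lay between -0.23 and 0.091.

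Set against C2C12-DF directly, W4-08-PR had the higher readings of all 3 guide arms. miR-206-3p was higher by a log2 ratio of 2.61 ± 0.15 (6.11-fold), miR-133b-3p by 2.60 ± 0.15 (6.06-fold) and miR-133a-3p by 2.17 ± 0.15 (4.5-fold). In brightness above background the folds were 8.77, 10.1 and 9.14 in that order. The 3 were called higher, where 0.395% of all probes and 1.55% of the 323 detected on both arrays were. None was called lower, where 0.474% and 1.86% were. The highest ratio of another probe was 1.51, for miR-5097, and the median over the 323 probes was -0.033. For miR-1a-3p the bound was 1.21-fold on the normalized scale, short of the limit. In brightness above background the bound was 2.90-fold, nominally past the limit and again without a technical SD. The miR-1a-3p spot of C2C12-DF lay 10.3 units above background, where the blank spots had an SD of 6.83 units. The comparisons against C2C12-PR share that array, and the ratio of W4-08-PR over C2C12-DF is the difference of the other 2.

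How far the 3 guide arms moved apart depended on the processing. In W4-08-PR over C2C12-PR, the log2 ratio of miR-206-3p exceeded that of miR-133b-3p by 0.67 ± 0.23 and that of miR-133a-3p by 1.13 ± 0.23, while miR-133b-3p exceeded miR-133a-3p by 0.46 ± 0.24. In the authors' processed values, where no offset is added, these differences were 0.38 ± 0.42, 0.47 ± 0.498 and 0.088 ± 0.54. The order stayed, but no difference then passed 1 technical SD. In C2C12-DF over C2C12-PR, miR-206-3p exceeded miR-133b-3p by 0.65 ± 0.25 and miR-133a-3p by 0.68 ± 0.25, whereas the miR-133 pair differed by 0.030 ± 0.26. The authors' processed values gave 0.58 ± 0.45, 0.53 ± 0.54 and -0.053 ± 0.58 for these, of which the first alone passed 1 technical SD. In W4-08-PR over C2C12-DF, miR-206-3p and miR-133b-3p differed by 0.013 ± 0.21 and, in the authors' processed values, by -0.20 ± 0.26, so their order there is not settled. miR-206-3p and miR-133a-3p differed by 0.44 ± 0.21 and, in the authors' processed values, by -0.061 ± 0.28, again with a change of sign. miR-133a and miR-133b are close in sequence, and whether their probes separate them was not tested.

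**Figure D4:**
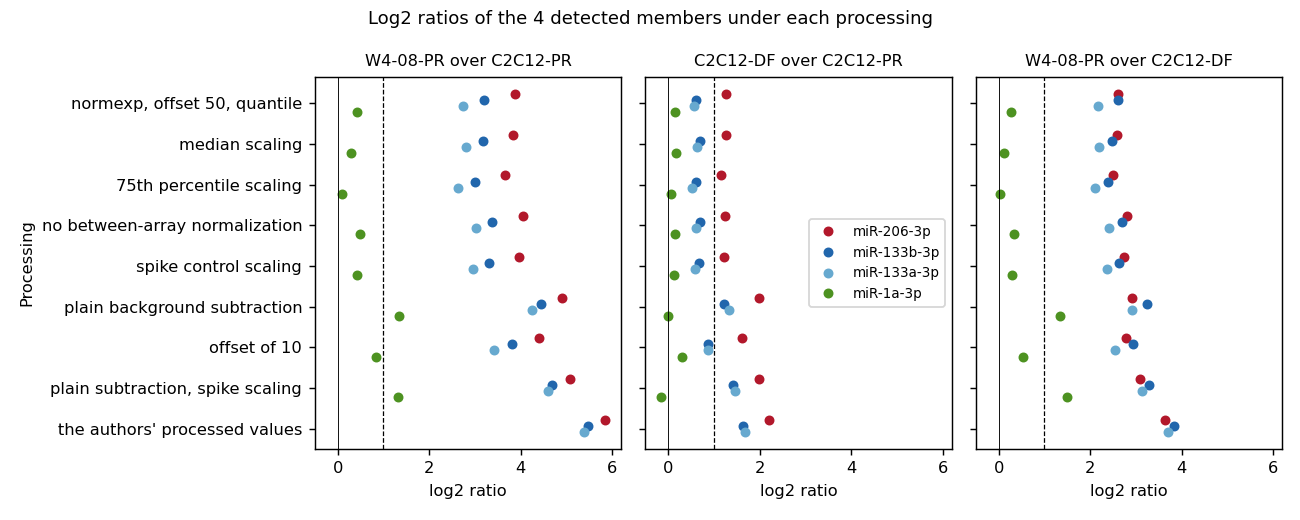
Log2 ratio (horizontal axis) of the 4 member probes detected on at least 1 array in the 3 comparisons, under the main processing (top row) and 8 alternatives (vertical axis), with the 2-fold limit dashed and no point of miR-1a-3p for the authors' processed values. The guide arms of miR-206, miR-133b and miR-133a stay right of the limit in every row of the comparisons with W4-08-PR, while in C2C12-DF over C2C12-PR the miR-133 pair crosses it in the rows without an offset.

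miR-6349 carries the seed of miR-206-3p and was detected on all 3 arrays, at 65.9 units above background in W4-08-PR, 51.1 units in C2C12-DF and 32.9 units in C2C12-PR. Its log2 ratios were 0.25 ± 0.17 in W4-08-PR over C2C12-PR and 0.22 ± 0.18 in C2C12-DF over C2C12-PR. In brightness above background it was 2.00-fold (log2 1.00 ± 0.39) and 1.55-fold (0.64 ± 0.43) higher in these comparisons. The order of the arrays was that of miR-206-3p, with smaller ratios. miR-6382, which shares more bases with miR-206-3p, was undetected throughout, at 0.65 units in W4-08-PR, -4.89 units in C2C12-DF and -11.8 units in C2C12-PR.

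The probes whose pattern over the 3 arrays was most like that of miR-206-3p, outside the members, were miR-378c, miR-711, miR-378d, miR-378b and miR-378a-3p. Likeness was the Euclidean distance between normalized log2 values centred per probe, over 473 candidate probes detected on W4-08-PR. The values were not scaled, so the distance counts the size of a change as well as its order over the arrays. These 5 lay at distances of 2.13 to 2.18, much farther than miR-133b-3p at 0.54 and miR-133a-3p at 0.80, while miR-1a-3p lay at 2.49. Their log2 ratios in W4-08-PR over C2C12-PR were between 0.87 and 0.98, below that of miR-133a-3p at 2.74. In brightness above background they were 2.82-fold (miR-711) to 3.69-fold (miR-378c) higher, against 25.4-fold for miR-133a-3p. The miR-378 probes are of the same family, and whether they separate its members was not tested.

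Of the other muscle-enriched miRNAs, miR-208a and miR-208b (encoded in cardiac and slow myosin genes), miR-499 (in a further myosin gene) and miR-486 (in Ank1), 8 probes were on the array. In each comparison 2 of the 8 were detected on both arrays, the joint probe of miR-486-5p with miR-3107-5p and miR-486-3p, and no probe was called. The joint probe read 35.2 units above background in W4-08-PR, 11.6 units in C2C12-DF and 14.7 units in C2C12-PR, with a log2 ratio of 0.23 ± 0.21 in W4-08-PR over C2C12-PR and a 2.40-fold brightness above background (log2 1.26 ± 0.80). miR-486-3p was brightest in C2C12-DF, at 59.8 units, with 21.6 units in W4-08-PR and 18.9 units in C2C12-PR. Its log2 ratio was 0.59 ± 0.20 in C2C12-DF over C2C12-PR, and its brightness above background was 3.16-fold higher there (1.66 ± 0.63). miR-208a-3p and miR-208a-5p were detected in W4-08-PR alone, at 11.6 and 20.7 units above background, where the dimmest detected probe lay at 9.77 units. miR-499-5p and miR-208b-3p, which mark slow muscle fibres, were detected on no array.

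Among miRNAs of other cell types, the smooth muscle pair miR-143-3p and miR-145a-5p was detected on every array. Their summed brightness above background was 622 units in W4-08-PR, 482 units in C2C12-DF and 232 units in C2C12-PR, the array order of the members. On the normalized scale neither probe kept that order. miR-145a-5p had log2 ratios of 1.11 in C2C12-DF over C2C12-PR and -0.41 in W4-08-PR over C2C12-DF. miR-143-3p had -0.13 and 0.70 in the same comparisons. The part of this pair in the ratios of the members was not tested. The sums for cardiac muscle, blood, neural, epithelial, liver and stem cell lists lay between 0 and 67.9 units on any array. The skeletal muscle list summed to 3650 units in W4-08-PR, 409 units in C2C12-DF and 122 units in C2C12-PR. It holds the 4 detected members and so is not independent of them. The lists differ in their number of probes, and probes differ in binding, so the sums do not measure the content of a cell type. Of these lists, leaving out skeletal muscle, miR-208a-3p (cardiac muscle) and miR-295-3p (stem cell) were detected in W4-08-PR. miR-223-3p (blood) was detected in W4-08-PR and C2C12-PR, and miR-144-3p (blood) in C2C12-PR. miR-128-3p (neural) was detected in W4-08-PR and C2C12-DF, and miR-205-5p (epithelial) in C2C12-DF. The detection limit was also reached by 6.85%, 6.01% and 7.15% of the blank spots on the W4-08-PR, C2C12-DF and C2C12-PR arrays. A single detection in a list can therefore be a spot at background. The other probes matched to these lists, among them miR-451a of red blood cells, miR-124-3p of neurons and miR-122-5p of liver, were undetected throughout. Matching by exact name found 5 of 6 stem cell, 4 of 5 blood, 6 of 7 skeletal muscle and 0 of 1 endothelial names. The stem cell name miR-290a-5p was not found, so the array's miR-290-5p was not counted. That probe was detected on both arrays of each comparison. Its log2 ratios were -0.23 in W4-08-PR over C2C12-PR, 0.12 in C2C12-DF over C2C12-PR and -0.34 in W4-08-PR over C2C12-DF.

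Mir206 and Mir133b lie in Lincmd1. The window from 250 bases before to 50 bases after its annotated start is shown, with motif matches in capitals. miR-133a-3p, encoded at other loci, was higher in the same comparisons as the guide arms of Mir206 and Mir133b. The part of this window in the ratios was not tested.
Lincmd1, chr1:20669632-20669931, plus strand: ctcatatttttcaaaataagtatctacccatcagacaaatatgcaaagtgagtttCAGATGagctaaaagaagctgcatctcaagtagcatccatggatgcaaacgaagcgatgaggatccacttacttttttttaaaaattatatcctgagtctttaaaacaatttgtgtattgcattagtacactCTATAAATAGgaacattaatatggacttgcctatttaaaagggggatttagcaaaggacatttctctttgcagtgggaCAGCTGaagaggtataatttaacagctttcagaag
The letters searched were the E-box CANNTG, bound by factors of the MyoD family, its form CAGCTG, and the outline of a MEF2 site, CTA and TAG separated by 4 bases of any kind. All of them read the same on both strands, and each CAGCTG is also a CANNTG. The window held 2 matches of CANNTG, at -195 and 16 from the start, of which the one at 16 is CAGCTG, and 1 match of the MEF2 outline at -63. Of all 32851 RefSeq promoter windows of this length, 72.3% held CANNTG, 16.3% CAGCTG and 3.69% the MEF2 outline. A match is a description of the sequence and was not measured as a binding site here.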

How the data were processed

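Total RNA was extracted with a miRNeasy kit per the labels (the study's methods name Isogen) and labelled with Cy5, and the arrays were run on the Toray 3D-Gene platform. The scanner, its settings and the software are not given in the sources used here. The authors deposited the linear intensity of each spot before background subtraction, a background-subtracted intensity for detected spots, and a processed intensity that is the latter times a factor of the array (0.914 for W4-08-PR, 0.647 for C2C12-DF and 0.561 for C2C12-PR) chosen so that detected probes have a median of 25. The series table holds the same processed values (largest difference 4.0e-06). Each of the 3 arrays was assigned to its condition by its title, and 0 columns were left unmapped.

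Here, the spot intensities were corrected with normexp in limma 3.58.1 (R 4.3.3), fitted on all 3200 spots of an array. Background was the mean of the blank spots trimmed by 5% at either end, and the offset was 50. Log2 was taken without a further pseudocount, and quantile normalization then covered the log2 values of the 1265 miRNA probes. The remaining steps used Python 3.11.15, numpy 2.4.6 and pandas 2.3.3, with figures by matplotlib 3.10.9. The technical SD combines the SD of all blank spots with that of the log2 spike controls (0.098, 0.14 and 0.12 on the W4-08-PR, C2C12-DF and C2C12-PR arrays) and leaves out the effect of quantile normalization and any error of an array's scale. Precision is limited by the number of arrays (1 per condition).

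Named were all 11 members and every probe of miR-208a, miR-208b, miR-499 and miR-486. Also named were miRNAs found with the seed of miR-206-3p, and the 5 probes nearest to miR-206-3p in pattern. The members, lists and alternatives were chosen with earlier results of these data known. The calling was run on simulated arrays with known changes. All changed probes were brighter in C2C12-PR than any member, so the simulation does not bear on the calls of the members. Sequences and gene order came from RefSeq tables of GRCm38.p6. Sequences were looked up by name for 5 of the 11 members only, and the search for shared seeds did not cover every chromosome.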

Additional observations from a re-analysis of the deposited data

How the results depend on the processing

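The main processing called 3 member probes higher in W4-08-PR over C2C12-PR, 1 in C2C12-DF over C2C12-PR and 3 in W4-08-PR over C2C12-DF, and none lower. The 12 alternatives changed the background correction, the scaling, the detection limit or the size limit. The count for C2C12-DF over C2C12-PR was 3 with plain background subtraction, 3 with plain subtraction and spike control scaling, and 3 with the authors' processed values, where miR-133a-3p and miR-133b-3p joined miR-206-3p, and 0 at a size limit of 2. In those settings 28, 31, 42 and 0 of all 1265 probes were called higher, against 3 in the main processing. In both comparisons of W4-08-PR the count was 3, or 4 with miR-1a-3p after plain subtraction with either scaling, which raises undetected spots to the dimmest detected value. All probes called higher then numbered 23 and, with spike control scaling, 50 in W4-08-PR over C2C12-PR, and 29 and 53 in W4-08-PR over C2C12-DF, against 3 and 5 in the main processing.

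The log2 ratio of miR-206-3p ran from 3.65 to 5.84 in W4-08-PR over C2C12-PR, from 1.16 to 2.21 in C2C12-DF over C2C12-PR and from 2.49 to 3.63 in W4-08-PR over C2C12-DF, highest in the authors' processed values. There the median of the 277 probes detected on all 3 arrays was itself 1.05, 0.41 and 0.74 in these comparisons, against -0.025, 0.048 and -0.023 in the main processing, and 161 probes were called higher and 1 lower in W4-08-PR over C2C12-PR, against 3 and 9. No paired analysis was possible because each condition has 1 array. Changes of a probe within about 12 units of background could not be measured.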
